A study of Mus musculus with 2 samples.

Results

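The 10 genes described here encode the cyclins and cyclin-dependent kinases of the G1 phase of the cell cycle and 2 of the RB family proteins that these kinases act on. They are the D-type cyclin genes Ccnd1, Ccnd2 and Ccnd3, the kinase genes Cdk4, Cdk6 and Cdk2, the E-type cyclin genes Ccne1 and Ccne2, and Rb1 and Rbl1. The genes were chosen by name. A probe set is a group of short oligonucleotides designed to read 1 transcript. Every probe set was taken that the array annotation assigned to 1 of these genes and to no other, which gave 30 probe sets. They are 10 of the 18193 genes that had a probe set of their own.

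The cells were mouse erythroid progenitors of the GATA-1-null line G1E that expressed ER-GATA-1(V205G). In this fusion an estrogen receptor domain makes a GATA-1 mutant, defective in binding its cofactor FOG-1, dependent on estradiol. One array measured cells exposed to 1 µM estradiol for 24 h, and 1 array measured cells before estradiol (0 h). Both carried the fusion and both lacked endogenous GATA-1, and the labels do not say whether the line was 1 clone. No array of estradiol-treated cells without the fusion, and none of cells kept for 24 h without estradiol, was analysed here, so the activated mutant, the hormone and the time in culture cannot be told apart. With 1 array a group there is no p-value and no error between cultures for any value below.

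In G1, D-type cyclins bind CDK4 or CDK6, and cyclin E binds CDK2. The active kinases add phosphate to RB and its relatives, which then release E2F transcription factors, and the genes of S phase are switched on. In mouse erythroid cells this step is tied to maturation: cyclin D3 is known for its part in setting how many divisions precede the mature red cell, high CDK6 for holding back maturation of erythroleukemia cells, and RB for the completion of red cell formation in the embryo.

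Signals are linear intensities in arbitrary units, and a ratio is given as the log2 of estradiol over untreated. A probe set was called measured where both arrays reached a floor, a signal of 95.2, the 50th percentile of all signals. Each gene takes the ratio of its brightest probe set, and 2-fold is the threshold for calling a difference. The only error at hand is how far probe sets for 1 gene differ from each other in log2 ratio, a pooled SD of 0.25 (12514 probe sets, 4586 genes). By tertile of signal it was 0.30, 0.25 and 0.21 from the dimmest genes to the brightest. Differences between probe sets of 1 gene hold probe noise and transcript forms, not differences between cultures.

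The arrays were alike in the checks that could be made. For beta-actin, 3' over 5' control signal was 1.16 in estradiol-treated and 1.14 in untreated cells, and for Gapdh it was 0.781 with estradiol and 0.798 without. The 18 hybridisation controls had log2 ratios from -0.17 to 0.25. All 8 erythroid progenitor markers with a probe set of their own, among them Kit, Epor and Klf1, were measured on both arrays, with log2 ratios from -0.56 to 0.86. Of 4 lymphoid markers 0 were measured on both arrays, of 6 neutrophil and monocyte markers 1, of 6 fibroblast or stroma markers 2 and of 4 megakaryocyte markers 2. Of 8 mast cell markers 4 were measured, with ratios of opposite sign. Tpsab1, a tryptase gene, had a signal of 3418 with estradiol and 140 without, 24.4-fold higher, while Cpa3, the mast cell carboxypeptidase gene, had 1146 with estradiol and 6616 without, 5.77-fold lower. Ms4a2, a gene of the high-affinity IgE receptor, was 2.65-fold lower and Cma1 had a log2 ratio of 0.19. The signals of all 8, those under the floor included, summed to 5873 with estradiol and 9236 without. The part of these mast cell transcripts in the ratios of the cyclin and kinase genes was not tested.

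Cdk6 stood apart from the other 9 genes: it was 2.23-fold lower in estradiol-treated cells and the only 1 of the 10 past 2-fold. Ccne1 lay at the other end, 1.71-fold higher on its brightest probe set and 1.46-fold on its other. The other 8 genes were within 1.5-fold, 6 of them on the lower side. All 10 genes were measured. At 1.5-fold the count was 1 of 10 on each side, with Ccne1 counted by its brightest probe set only. By that much, 4.85% of all measured genes were lower and 7.11% higher. Over all 10240 measured genes, 1.1% were lower by 2-fold or more and 2.04% higher, against 1 and 0 of the 10 here, so the count of members past 2-fold is small and says little beyond Cdk6 itself. Because RNA came from whole cultures, fewer cells holding a transcript and less of it per cell cannot be told apart.

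**Figure D1:**
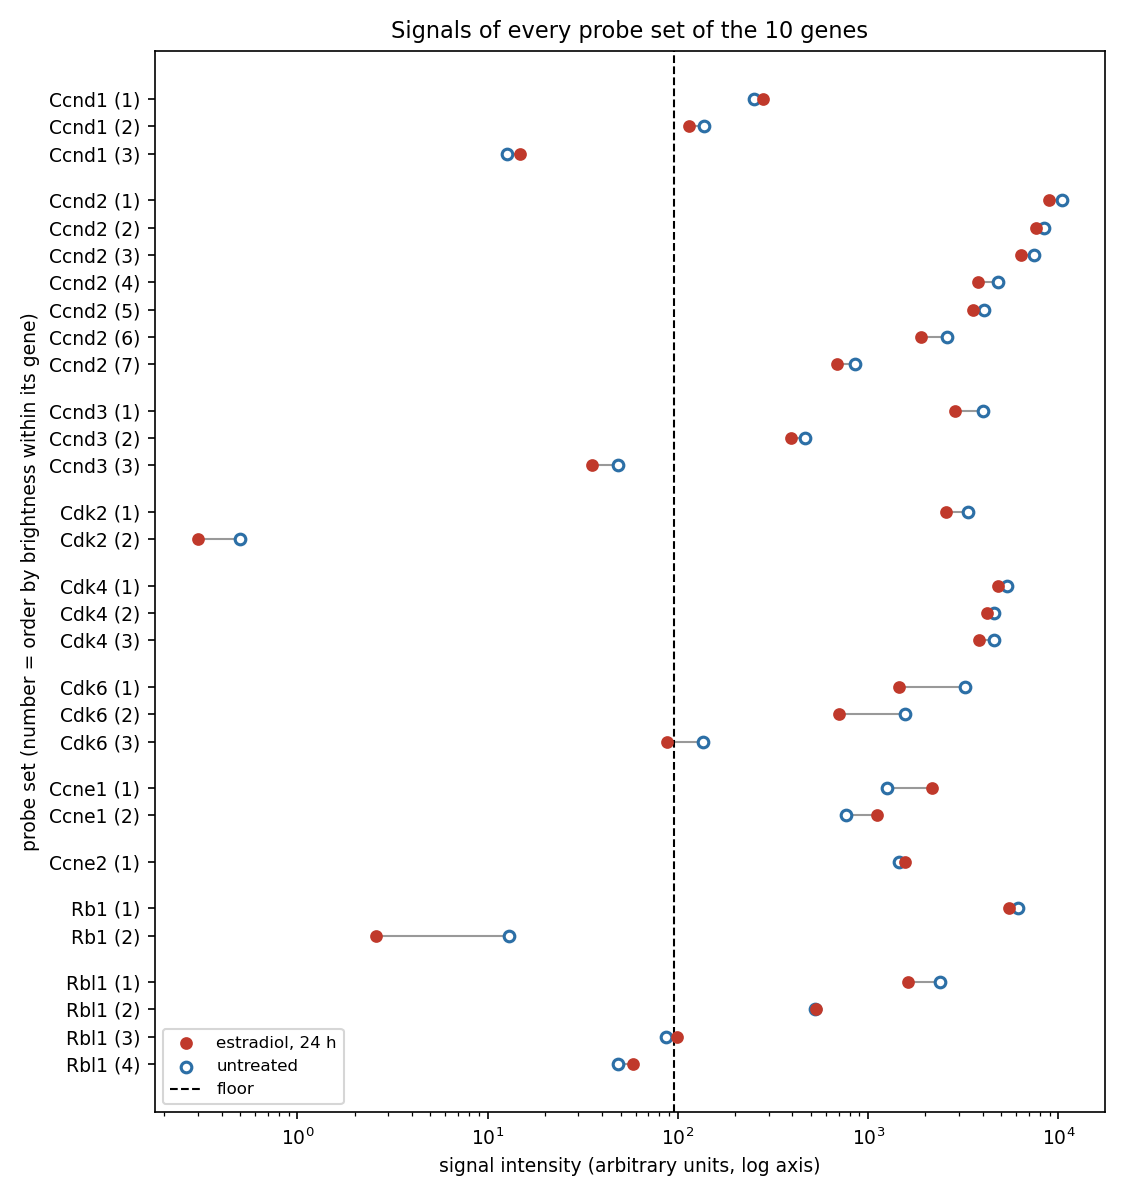
Signal of each of the 30 probe sets (rows, numbered by brightness within their gene) with estradiol (filled red) and in untreated cells (open blue), on a log axis in arbitrary units, with the floor as a dashed line. The 2 brighter Cdk6 probe sets show the widest gaps among those above the floor on both arrays, with estradiol at the lower end, and both Ccne1 probe sets have estradiol at the higher end.

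Cdk6 encodes a catalytic partner of the D-type cyclins. Its brightest probe set had a signal of 1457 in estradiol-treated cells and 3243 in untreated cells, a log2 ratio of -1.15. Its next probe set had a signal of 699.9 with estradiol and 1558 without, also a log2 ratio of -1.15. These probe sets were both designed from 1 expressed sequence tag, BM238926, so they read the same transcript end and are not independent of each other. The remaining probe set, designed from the reference transcript NM_009873, had a signal of 87.2 with estradiol, under the floor, and 136 without, which makes it at least 1.43-fold lower. All 3 probe sets of Cdk6 were thus lower with estradiol, though the dim one adds only a bound, and with the floor at the 30th percentile it was measured at a log2 ratio of -0.64. Of the 10240 measured genes, 73 (0.713%) had a lower log2 ratio than Cdk6. Among the 4586 genes with several measured probe sets, 0.72% had at least 2 of them 2-fold lower, as Cdk6 did.

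Cdk4 encodes the sister kinase of CDK6 and uses the same cyclins. Its signal was 4806 with estradiol and 5336 in untreated cells, a log2 ratio of -0.15. The other probe sets of Cdk4 had log2 ratios of -0.13 and -0.27. All 3 lay below 0 but inside 2 SD between probe sets for genes of its brightness, 0.43. The log2 ratios of the D-cyclin kinase genes, -1.15 for Cdk6 and -0.15 for Cdk4, lie further apart than 2 SD for a single gene. Their difference holds the error of both ratios and has no replicate check.

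Cdk2 encodes the partner of cyclin E. Its signal was 2555 with estradiol and 3355 without, a log2 ratio of -0.39, short of 2 SD (0.43), although it passed that limit, at -0.50, with a common median. Its only other probe set had signals of 0.3 with estradiol and 0.5 without, far below the floor, and gave no ratio. Cdk2 therefore rests on 1 probe set.

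The promoters of these kinase genes, together with those of Ccne1 and Rbl1, are shown because these genes cover the range of ratios seen here. Sequences are from RefSeq (GRCm38.p6). They matched 6 of the 10 genes by symbol: Cdk6, Cdk4, Cdk2, Ccne1, Rbl1 and, with 2 start sites, Ccnd3. Each is the 250 bases before the annotated start site, 5' to 3' on the gene's strand. The Cdk6 window is chr5:3343643-3343892 on the plus strand, and the Cdk4 window chr10:127063285-127063534 on the plus strand. The annotated Cdk6 gene begins at base 3341004, so its window precedes a start site inside the gene. The other printed windows each adjoin the outer end of their gene. The Cdk2 window is chr10:128705052-128705301, that of Ccne1 chr7:38107491-38107740 and that of Rbl1 chr2:157204535-157204784, all on the minus strand. Capitals mark matches, on either strand, to the E2F words TTTCCCGC or TTTCGCGC or TTTGCCGC or TTTGGCGC, the GATA words AGATAA or TGATAA or AGATAG or TGATAG, the GC box GGGCGG, the E box CACGTG bound by MYC and related factors, and TATAAA.
Cdk6: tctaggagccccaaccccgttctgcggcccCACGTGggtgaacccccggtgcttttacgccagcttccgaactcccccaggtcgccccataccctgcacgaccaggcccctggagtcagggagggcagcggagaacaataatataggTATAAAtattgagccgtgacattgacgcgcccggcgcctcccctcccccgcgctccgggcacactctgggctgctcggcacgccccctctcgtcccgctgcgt
Cdk4: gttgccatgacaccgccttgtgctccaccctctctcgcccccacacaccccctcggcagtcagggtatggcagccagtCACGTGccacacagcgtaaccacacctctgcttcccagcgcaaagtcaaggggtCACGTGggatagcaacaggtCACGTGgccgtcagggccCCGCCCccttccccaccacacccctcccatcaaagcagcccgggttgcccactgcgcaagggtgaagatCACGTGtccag
Cdk2: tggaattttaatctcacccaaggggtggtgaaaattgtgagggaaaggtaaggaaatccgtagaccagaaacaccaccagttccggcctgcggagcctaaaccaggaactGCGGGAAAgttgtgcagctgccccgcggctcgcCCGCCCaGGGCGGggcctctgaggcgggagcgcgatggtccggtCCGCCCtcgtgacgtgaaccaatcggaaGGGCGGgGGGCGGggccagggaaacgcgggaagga
Ccne1: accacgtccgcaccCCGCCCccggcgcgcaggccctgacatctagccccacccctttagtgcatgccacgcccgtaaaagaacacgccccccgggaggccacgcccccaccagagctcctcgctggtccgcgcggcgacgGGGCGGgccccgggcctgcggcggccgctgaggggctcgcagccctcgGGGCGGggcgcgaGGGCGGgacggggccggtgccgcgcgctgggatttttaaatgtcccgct
Rbl1: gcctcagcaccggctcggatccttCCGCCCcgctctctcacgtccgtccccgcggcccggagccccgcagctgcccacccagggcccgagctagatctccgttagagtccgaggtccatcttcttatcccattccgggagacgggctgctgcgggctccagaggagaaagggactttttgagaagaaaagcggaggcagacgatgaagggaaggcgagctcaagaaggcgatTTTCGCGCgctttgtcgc

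Of the matches to different words in these windows, 0 overlapped. The E2F words stood in Rbl1, 18 bases before the start site, and in Cdk2, 140 bases before it; 1.86% of all 32851 RefSeq windows held one. The Cdk4 window held 4 E boxes and the Cdk6 window 1, where 6.02% of all windows held at least 1. A GC box stood in the windows of Cdk4, Cdk2, Ccne1, Rbl1 and in both of Ccnd3, but not in that of Cdk6, and in 32.7% of all windows. Cdk6 alone of these windows held TATAAA, 103 bases before its internal start site, which 12.4% of all windows held. Sequence before the outer end of the Cdk6 gene was not read. The GATA words were in 0 of the 7 windows and in 26.5% of all windows. G and C made up 59.6% to 76% of the bases in the 7 windows, where the median of all windows was 52.4%. The shares of all windows are not matched for this base content. These matches describe letters in a short stretch and say nothing about binding there or elsewhere in the gene.

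Of the cyclin E genes, Ccne1 was higher and Ccne2 had no clear direction. Ccne1 encodes cyclin E1, whose synthesis marks the end of G1. Its brightest probe set had a signal of 2154 with estradiol and 1260 in untreated cells, a log2 ratio of 0.77. For that probe set the array annotation names no source sequence. The other probe set of Ccne1, designed from its reference transcript, had a signal of 1118 with estradiol and 766.4 without. Its log2 ratio was 0.55, or 1.46-fold higher, short of 1.5-fold. Both lay above 2 SD between probe sets of genes of this brightness (0.49) and below 2-fold, although the second was at 0.43 with the arrays scaled to a common median. Of all measured genes, 402 (3.93%) had a higher log2 ratio than the brightest probe set of Ccne1. Ccne2, which encodes cyclin E2, had a signal of 1564 with estradiol and 1451 without, a log2 ratio of 0.11 from its single probe set. That value is within 2 SD, and it was -0.00 when the arrays were scaled to a common median, so no direction can be given for Ccne2. The log2 ratio of Ccne1 was 1.17 above that of its kinase partner Cdk2 and 0.67 above that of Ccne2. Such a difference holds the error of both ratios, so 2 SD for a single gene is too narrow a limit for it. Neither difference has a replicate check.

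**Figure D2:**
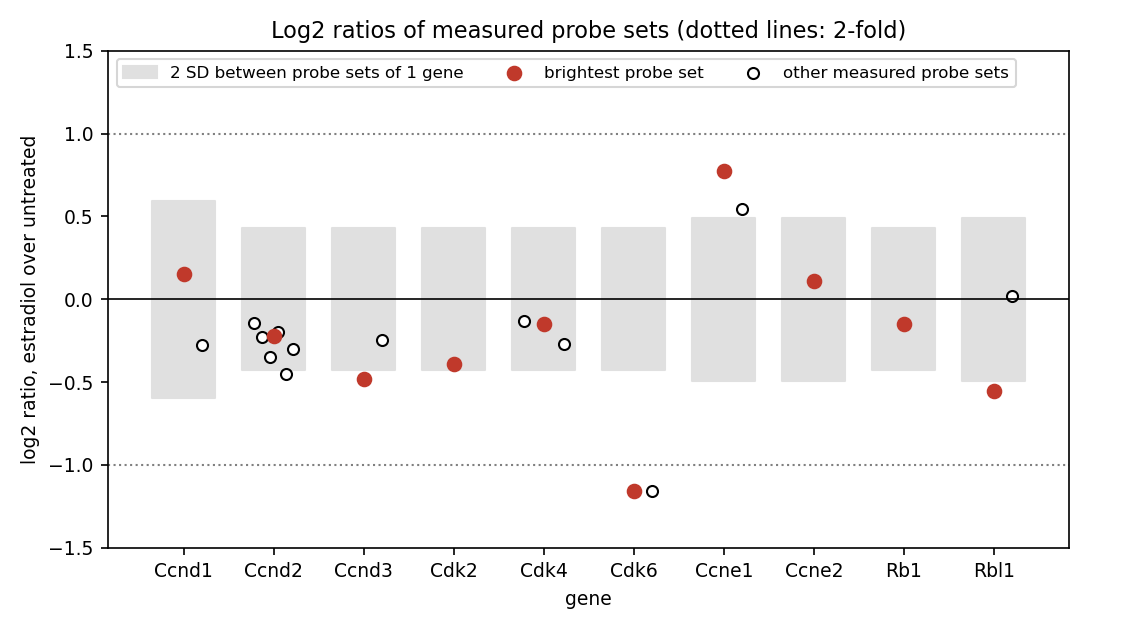
Log2 ratio of estradiol over untreated for each measured probe set by gene, with the brightest filled and the others open, 2 SD between probe sets of 1 gene in grey for the gene's tertile of signal, and 2-fold as dotted lines. Cdk6 at -1.15 and Ccne1 at 0.77 and 0.55 lie clear of the grey range with both of their measured probe sets, and the 7 probe sets of Ccnd2 lie between -0.45 and -0.14.

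The D-type cyclin genes differed little, and the 2 brighter ones were on the lower side. Ccnd2 encodes cyclin D2. Its brightest probe set had a signal of 8919 with estradiol and 10387 in untreated cells, a log2 ratio of -0.22. All 7 of its probe sets were measured and all 7 were lower with estradiol, with log2 ratios from -0.45 to -0.14 and a median of -0.23. The size is small beside 2 SD (0.43) and only the lowest probe set passed it, but all 7 stayed below 0 under each of the 4 other scalings of the arrays. Among the 327 genes with 5 or more measured probe sets, 16.5% likewise had all of them below 0, so this is not a rare outcome.

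Ccnd3 encodes cyclin D3. Its signal was 2876 with estradiol and 4009 without, a log2 ratio of -0.48, beyond 2 SD (0.43) and 1.39-fold lower; the median over its measured probe sets, -0.36, was within it. A dimmer probe set had a signal of 392.8 with estradiol and 465.7 without, a log2 ratio of -0.25, and the dimmest was under the floor with signals of 35.2 with estradiol and 48.7 without. Both measured probe sets of Ccnd3 were lower, and 7.5% of all measured genes had a lower log2 ratio than its brightest.

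Ccnd1, which encodes cyclin D1, was dim. Its brightest probe set had a signal of 278 with estradiol and 251 in untreated cells, a log2 ratio of 0.15. The next had a signal of 114 with estradiol and 138 without, a log2 ratio of -0.28, and the dimmest had 14.8 with estradiol and 12.6 without and stayed under the floor. The 2 measured probe sets pointed opposite ways and both lay within 2 SD for dim genes (0.60), so no direction can be given for Ccnd1.

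Of the RB family genes, Rbl1 was lower on 1 of its probe sets and not on another. Rb1 encodes RB itself, the main target of the D-cyclin kinases. Its signal was 5511 with estradiol and 6101 without, a log2 ratio of -0.15, within 2 SD (0.43). Its other probe set was under the floor on both arrays, with signals of 2.6 with estradiol and 12.9 without, and gave no ratio.

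Rbl1 encodes a relative of RB that works with repressive E2F factors. Its brightest probe set, from the accession U27177, had a signal of 1616 with estradiol and 2372 in untreated cells, a log2 ratio of -0.55. A dimmer probe set, from the accession U27178, had 533.1 with estradiol and 525.1 without, a log2 ratio of 0.02. The first is past 2 SD (0.49) and the second is near 0, so the Rbl1 ratio depends on the probe set. Of the others, 1 had a signal of 99.2 with estradiol, just above the floor, and 86.8 without, and the dimmest stayed below the floor on both arrays.

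As a list, the 10 genes had a median log2 ratio of -0.19, where the median of all measured genes was 0.00. Log2 ratios were below 0 in 7 of the 10, against 49.9% of all measured genes, and in 8 with a common median or with the median over probe sets. At probe set level 18 of 23 measured probe sets were below 0, against 47.6% of all measured probe sets, though probe sets of 1 gene share their transcript. Beyond 2 SD between probe sets were 3 of the 10 on the lower side (Cdk6, Ccnd3 and Rbl1), against 6.16% of all measured genes, and 1 on the higher side (Ccne1), against 7.93%. The lower count was 4 with a common median, which added Cdk2 and raised the share of all genes to 9.75%, and 1 with the median over probe sets, Cdk6, where the share was 5.54%. Of the 30 probe sets, 2 had only a bound and 5 were below the floor on both arrays.

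**Figure D3:**
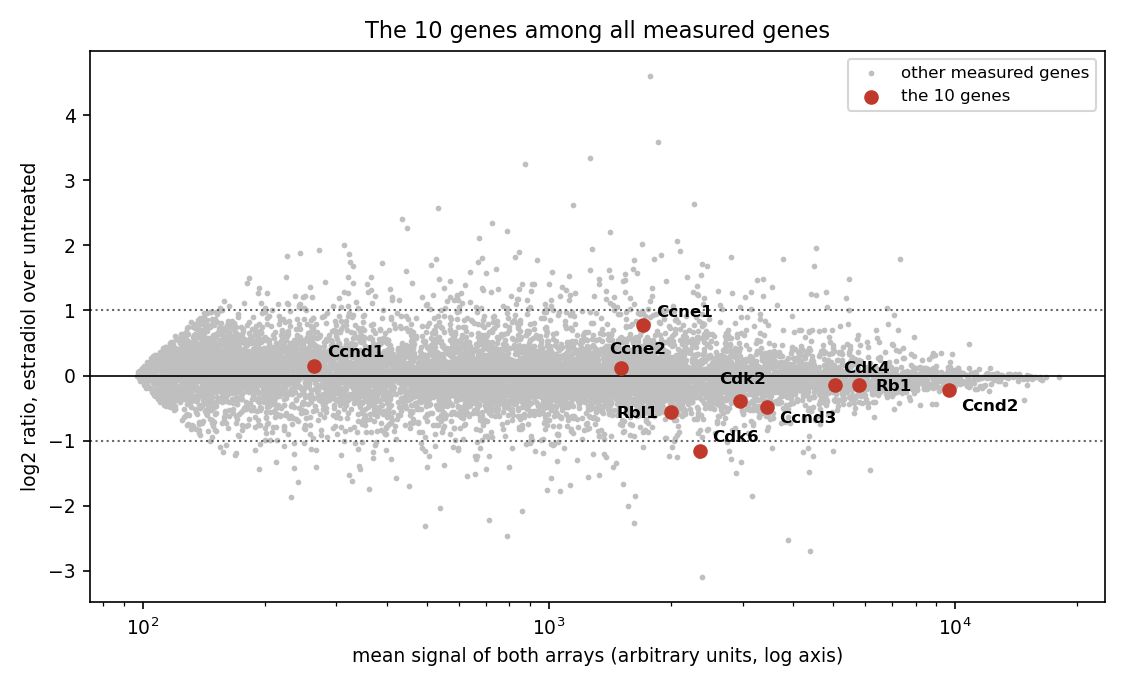
Log2 ratio of estradiol over untreated against mean signal (log axis, arbitrary units) for 10240 measured genes in grey and the 10 G1 genes in red, with 2-fold as dotted lines. Cdk6 lies below the lower line at -1.15, Ccne1 at 0.77 stays under the upper line, and the remaining 8 lie within the cloud of other genes.

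The other genes of the G1 pathway were read from 6 lists, and most of their members were within 2-fold. Of all measured genes, 49.9% were below 0, 2.04% were past 2-fold on the higher side and 1.1% on the lower, and the counts below stand against these shares. The 4 measured genes for CDK inhibitors, the proteins that hold these kinases in check, had log2 ratios above 0, although Cdkn2c (-0.09) and Cdkn2d (-0.02) were below it with a common median. Cdkn1b had a signal of 1063 with estradiol and 607 without, a log2 ratio of 0.81 from its 1 measured probe set. By brightest probe set it was the only one of the list past 2 SD (0.60). Cdkn1a followed at 0.38, with 0.55 on its other probe set, past 2 SD for its brightness (0.43). Cdkn2d was at 0.09 and Cdkn2c at 0.03. The median of the list was 0.23, and 0.09 with Cdkn2a counted at its bound. Cdkn1c and Cdkn2b were under the floor on both arrays, and Cdkn2a reached it with estradiol only.

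Skp2, which encodes the ubiquitin ligase subunit that targets the Cdkn1b protein for destruction, had the lowest ratio among 17 measured genes for activators and turnover of the G1 kinases. Its signal was 918 with estradiol and 1745 without, a log2 ratio of -0.93. All 6 of its probe sets were lower, with log2 ratios from -1.34 to -0.19. Among the 327 genes with 5 or more measured probe sets, 16.5% likewise had all of them below 0. With the floor at the 70th percentile, 4 probe sets of Skp2 were measured, from -1.34 to -0.90. The list had 0 genes past 2-fold in either direction and a median of -0.13, and with a common median Skp2 alone passed it, at -1.04. Fbxo4 (log2 ratio -0.60) and Fzr1 (-0.51) came next at the low end, and Fbxw7, which encodes the subunit that targets cyclin E, was highest at 0.36, with Cdc25a at 0.05 and Usp2 at 0.03 after it.

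Among RB's relative Rbl2 and the E2F partners, 9 of 11 measured genes were below 0 and 0 were past 2-fold, with a list median of -0.18. The lowest log2 ratios were those of E2f7 (-0.47), E2f8 (-0.41, with -0.77 on its other probe set) and Rbl2 (-0.41). The highest were those of E2f4 (0.41), Tfdp2 (0.24, with -0.11 on its lowest probe set) and E2f6 (-0.04). None of these passed 2 SD between probe sets on its brightest probe set, though the other probe set of E2f8 did (2 SD 0.49). Among E2F target genes of S phase, 16 of 20 measured were below 0, where 49.9% of all measured genes were, and 0 were past 2-fold, with a median of -0.15. Tk1, the thymidine kinase gene, was lowest at -0.88, followed by Cdc45 (-0.49) and Tyms (-0.46). Cdc6, which loads the replicative helicase, was highest at 0.43, followed by Orc1 (0.14) and Rrm2 (0.12). Of these named genes, Tk1 (2 SD 0.49) was past 2 SD on the lower side and Cdc6 (2 SD 0.43) barely past it on the higher. Each of them had 1 probe set. Cdc45, Tyms, Orc1 and Rrm2 were within 2 SD.

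Other cyclin and kinase genes had a median log2 ratio of 0.08 (-0.036 with a common median), with 0 of 22 measured past 2-fold and 15 above 0 (10 with a common median). Ccng2, a cyclin gene linked to cell cycle exit, had a signal of 1079 with estradiol and 568 without, a log2 ratio of 0.93, and both of its probe sets were higher. Cdk8 (0.65) and Cdk19 (0.64), which encode sister kinases of the Mediator complex, were next, and Cdk1 (-0.42), Cdk9 (-0.24) and Cdk5 (-0.16) were lowest. Cdk9 and Cdk5 had another probe set above 0, at 0.31 and 0.37.

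Of 13 measured genes for upstream regulators of D cyclins, 1 passed 2-fold on the higher side, where 2.04% of all measured genes did, and 1 on the lower, where 1.1% did, with a median of -0.13. Stat5a, a factor downstream of cytokine receptors that can raise D cyclin genes, was 2.37-fold lower, and its close relative Stat5b had a log2 ratio of 0.46. Csf2rb, a cytokine receptor chain gene, was 3.47-fold higher, and Foxo3 had a log2 ratio of 0.56. At the low end Akt1 (-0.38, with 0.11 on its highest probe set) and Myc (-0.26) followed Stat5a. Jun and Fos, genes of the early mitogen response, reached the floor with estradiol only, which makes Jun at least 3.25-fold and Fos at least 2.28-fold higher. Counted at these bounds, the list median was -0.08.

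**Figure D4:**
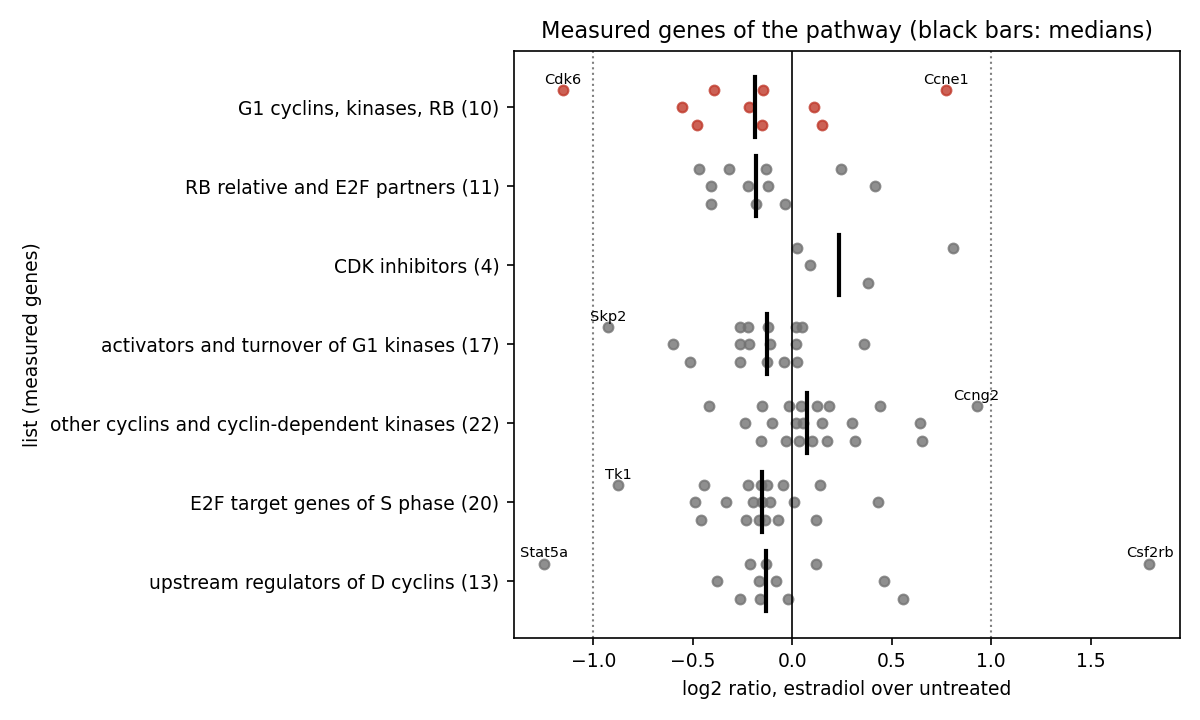
Log2 ratio of estradiol over untreated for each measured gene of the 10 G1 genes (red, top) and of the 6 pathway lists (grey), with list medians as black bars and 2-fold as dotted lines. The medians lie between -0.19 and 0.23, and Cdk6, Stat5a and Csf2rb are the measured genes past 2-fold.

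The ratios of the members moved little with the processing. Over 9 settings of scaling, floor and choice of probe set, Cdk6 ranged from -1.27 to -1.13 and stayed past 2-fold in all 9. Several of these settings could hardly move it. Signals as deposited differed by scale factors of only 1.00006 (estradiol) and 0.999941 (untreated). A floor at the 30th or 70th percentile left its ratio unchanged, and its median over probe sets joined values of -1.15 from the same sequence tag. Ccne1 ranged from 0.66 to 0.79. Ccnd3 ranged from -0.59 to -0.36, Cdk2 from -0.50 to -0.36 and Ccnd2 from -0.33 to -0.16, all on the lower side throughout. Cdk4 ranged from -0.26 to -0.11 and Rb1 from -0.26 to -0.10. Rbl1 ranged from -0.67 to -0.27, where the end nearest 0 is the median over its measured probe sets. Ccnd1 ranged from -0.06 to 0.15 and Ccne2 from -0.00 to 0.12, so both crossed 0.

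**Figure D5:**
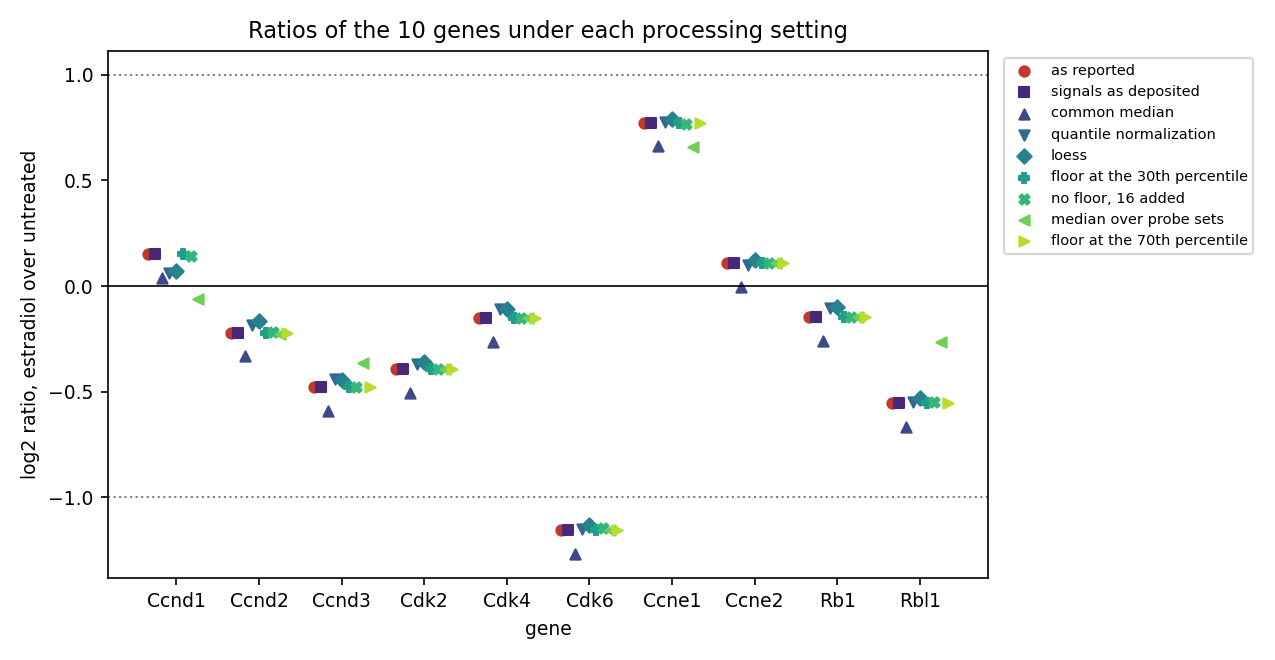
Log2 ratio of estradiol over untreated for the 10 genes as reported and under 8 other settings of scaling, floor and choice of probe set, with 2-fold as dotted lines. Cdk6 stays between -1.27 and -1.13 and Ccne1 between 0.66 and 0.79, while Ccnd1 and Ccne2 cross 0.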

How the data were processed

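RNA from 1 culture of each group was read on 1 oligonucleotide array, per the labels from total RNA with a biotin label. The deposited values were linear signal intensities, made with GCOS per the submitters' processing notes; its version and any further steps are not given in the sources used here. On both arrays the 2% trimmed mean was 500.003. Signals were rescaled to a common trimmed mean over the 45037 probe sets that are not controls, by factors of 1.00006 (estradiol) and 0.999941 (untreated). Genes were named through the platform annotation: 34945 probe sets had 1 symbol, 932 several and 9160 none. With 1 array a group, the number of arrays limits the precision and no test was run. The members and lists were chosen with earlier results of these data known. Named genes were all members, list genes past 2-fold and the 3 highest and 3 lowest of each list. List genes without a probe set of their own here, among them Skp1a, Ccnb1 and Chaf1a, are not analysed here. The steps were tested on simulated data with folds set beforehand and Gaussian noise of the pooled SD between probe sets of 1 gene. The simulation held no differences between cultures, so it cannot speak to those. Python 3.11.15 was used with numpy 2.4.6, pandas 2.3.3, scipy 1.17.1, statsmodels 0.14.6 and matplotlib 3.10.9.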

Additional observations from a re-analysis of the deposited data

How the results depend on the processing

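No paired analysis was possible because each group held 1 array. Scaling to a common median put the median of all measured genes at -0.11, and relative to it Cdk6 stood at -1.16 and Ccne1 at 0.77. Under that scaling the median of the 10 members was -0.30, and list medians were -0.30 for Rbl2 and the E2F partners, 0.12 for CDK inhibitors, -0.24 for activators and turnover of G1 kinases, -0.036 for other cyclins and kinases, -0.27 for E2F target genes and -0.24 for upstream regulators; pathway genes at least 2-fold lower became 2, Stat5a and Skp2. The CDK inhibitor median was 0.38 both with a floor at the 30th percentile and with no floor and 16 added, since more members then counted as measured. Rbl1 was at -0.27 with the median over probe sets. The count of members past the threshold was 1 higher and 1 lower at 1.5-fold and 0 lower at 3-fold. All genes past 2-fold were 439 higher and 288 lower of 13461 measured with a floor at the 30th percentile. They were 130 and 65 of 7122 at the 70th, and 679 and 512 of 18193 with no floor. At 1.5-fold they were 728 and 497 of 10240, and at 3-fold 49 and 21. Pathway genes past 2-fold on the higher side were 3 with a floor at the 30th percentile and 3 with no floor, with Jun and Fos then measured. Past 1.5-fold were 5 higher (Csf2rb, Ccng2, Cdkn1b, Cdk8 and Cdk19) and 4 lower (Stat5a, Skp2, Tk1 and Fbxo4), and past 3-fold 0 lower. Of 195 alternative values, 167 stayed within their limits (the SD between probe sets for a gene, 0.1 for a median, 1.5 times for a count). Some of these could not move, since another floor does not change the ratio of a gene that stays measured. Ccnd1 had no ratio at the 70th percentile floor. Quantile normalization and loess moved no value past these limits. Nor did signals as deposited, which could hardly do so because the scale factors were close to 1.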
